A study of Mus musculus with 5 samples.

Results

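The comparison described here sets the library labelled WT_K118R against the library labelled PMSCV, which are 2 of the 5 RNA sequencing libraries of the study. Genes entered it when their mean count over the 5 libraries was at least 20, and 1547 of the 50867 genes in the deposited table did so. The cell line was Ba/F3 throughout, infected with lentivirus; these are mouse cells of the pro-B stage that need interleukin-3 to survive and divide. PMSCV is treated here as the vector control, and WT_K118R carries a construct whose protein the labels do not spell out. K118R is the usual notation for the exchange of a lysine for an arginine. The other libraries, labelled WT, S_PXT1 and S_PXT1_K118R, are given only where they show what a gene did outside the pair. The libraries are total RNA with an RNA integrity number above 7, and no dose, time or sort is given in the labels. With 1 library in each group there was no replicate to check a difference against, and p-values are not given.

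Ba/F3 cells are used to test whether a protein can replace the signal of interleukin-3, which reaches the nucleus through JAK kinases and STAT5. Transcription factors of early blood cells, such as SPI1 and GATA2, set the identity of such progenitors. Much of the control over which proteins a cell makes lies after transcription, where SR proteins and hnRNPs choose exons, cleavage factors place the poly(A) tail, and poly(A)-binding proteins and readers of methylated adenosine set how long an mRNA lasts.

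The deposited table names genes by human identifiers, symbols and positions although the cells are mouse, and the genome build was not given in the sources used here. A count is therefore what the authors counted on a human gene model. The total count was 266905 in PMSCV and 347661 in WT_K118R, and ranged from 250409 to 351693 over the 5 libraries. After scaling of the library sizes by the trimmed mean of M values (TMM), 1 count was worth 3.56 CPM (counts scaled to the library size) in PMSCV and 2.96 CPM in WT_K118R. PMSCV detected 11492 genes, WT_K118R 11504 and WT 11712, while S_PXT1 detected 7393 and S_PXT1_K118R 7044. Of the genes seen in the pair, 8878 had a count in both libraries, 2614 in PMSCV alone and 2626 in WT_K118R alone. Counts in 1 of the pair alone reached 103 in PMSCV and 25 in WT_K118R. The 1547 entering genes held 84.2% of the counts of PMSCV and 86.7% of those of WT_K118R.

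The cell type could be checked only in part. Of the 22 pro-B and B cell markers looked up, 13 had no count in either library, among them the defining genes CD79A, CD79B, PAX5, RAG1, RAG2, VPREB1, IGLL1 and DNTT. IKZF1, a transcription factor of lymphoid cells, had 27 counts in PMSCV and 28 in WT_K118R. BTK, a kinase of B cell receptor signalling, had 10 and 11. The summed count of the 22 markers was 62 in PMSCV and 55 in WT_K118R. IL3RA, which encodes a chain of the interleukin-3 receptor, had no count in either. Whether a mouse transcript that differs from the human model would be counted at all was not tested.

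Sequences are shown for the place where the largest ratios in both directions lie side by side. It is the junction of 2 mitochondrial genes of respiratory complex I, mt-Nd4l and mt-Nd4, on the mouse mitochondrial chromosome (GENCODE M21 on GRCm38, plus strand, chrM:9877-10173 and chrM:10167-11544). The last 30 bases of the one and the first 30 of the other are printed 5′ to 3′, and capitals mark the 7 bases that the genes share.
mt-Nd4l end: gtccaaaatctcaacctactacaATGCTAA
mt-Nd4 start: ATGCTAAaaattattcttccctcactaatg

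Most genes had similar levels in the pair of libraries. Called higher or lower were genes whose ratio of CPM + 1 between WT_K118R and PMSCV reached 2-fold, and log2 ratios are given on that scale, which understates the difference of low genes. Of the 1547 genes, 44 were higher in WT_K118R (2.84%), 42 were lower (2.71%) and 1461 lay within 2-fold (94.4%). The median log2 ratio was 0.10, and the range from the 5th to the 95th percentile was -0.61 to 0.68. Scaling by total counts gave a median log2 ratio of all entering genes of -0.02, so the sign of a list median near 0, and an interval bound close to 1, depend on the scaling. Folds below are ratios of scaled counts without the added 1, each with its exact 95% counting interval, which covers counting error only, since reads were not tagged by molecule and are not independent. All 44 higher genes (2.84%) and 41 of the 42 lower genes (2.65%) had an interval that excluded a ratio of 1. Such intervals were common among all 1547 genes, called or not: 222 lay above 1 and 83 below. Among the 505 genes with a mean count of at least 100, 144 lay above 1 and 23 below. An interval above 1 is thus not particular to a gene or list. Among the 505 genes with a mean count of at least 100, 8 were higher (1.58%), 9 were lower (1.78%) and the median log2 ratio was 0.15. Called genes were mostly thin: the median mean count was 36.7 for the higher and 34.6 for the lower genes, against 58.4 for all entering genes. The nearest genes on each side of the threshold were YTHDF2 at a log2 ratio of 1.01 and HNRNPU at 0.98, and RPL36A-HNRNPH2 at -1.0 and NFKBIA at -0.97.

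**Figure D1:**
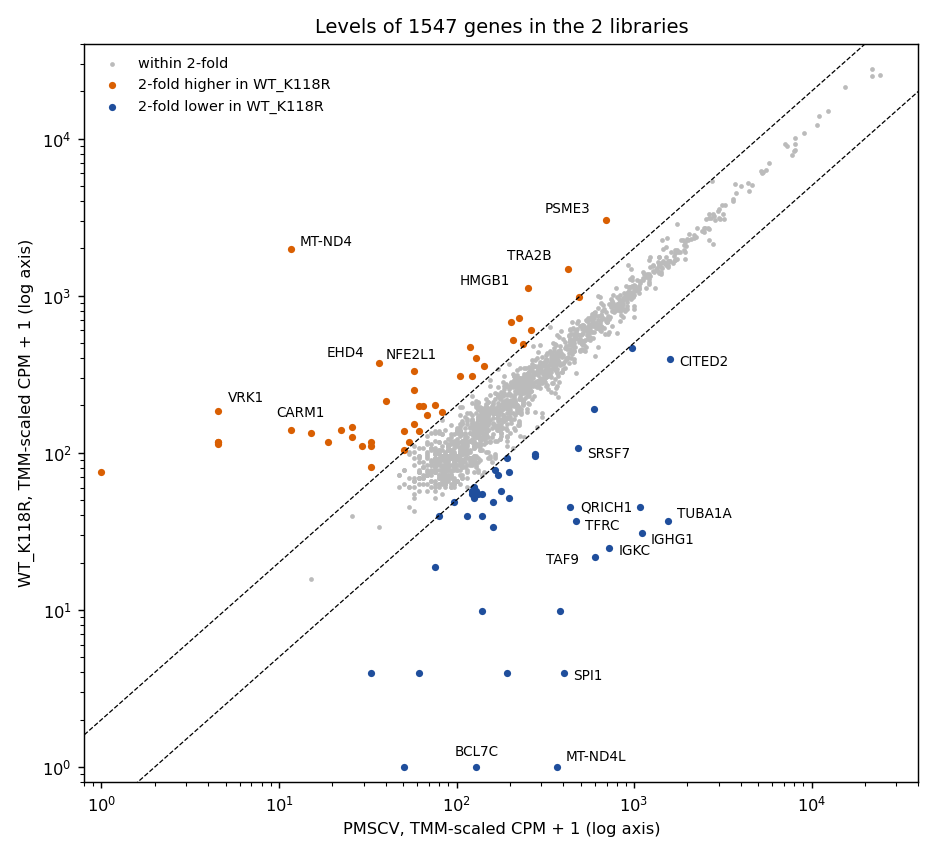
TMM-scaled CPM + 1 of the 1547 entering genes in PMSCV (x axis) and WT_K118R (y axis), both on log axes. Each point is 1 gene, dashed lines mark a 2-fold difference, and the 44 higher and 42 lower genes are coloured; MT-ND4, SPI1 and TUBA1A lie far from the diagonal that most genes follow.

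SPI1 was among the 15 genes with the lowest ratios, and CITED2 among the 10 lowest of those with a mean count of at least 100. SPI1 (PU.1), a transcription factor required for myeloid and B cell development, had 113 counts in PMSCV, 173 in WT, 139 in S_PXT1, 128 in S_PXT1_K118R and 1 in WT_K118R. Its human model lies on chromosome 11 from 47354860 to 47378576 on the minus strand. The level in WT_K118R was 136-fold lower than in PMSCV (counting interval 23.8 to 5402), and WT_K118R was the only one of the 5 libraries with fewer than 100 counts of it. CITED2, which binds the coactivators CBP and p300, had 450 counts in PMSCV, 602 in WT, 1291 in S_PXT1, 403 in S_PXT1_K118R and 133 in WT_K118R. That was 4.06-fold lower than in PMSCV (3.34 to 4.96), and again the lowest of the 5 libraries. The coactivator genes themselves were near level, with 27 counts in both libraries for EP300 and 28 against 31 for CREBBP, the latter named after its values were seen.

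The rest of the fixed list of blood progenitor transcription factors did not share this difference. Of its 19 matched genes 8 entered, 0 were higher and 2 were lower, SPI1 and CITED2, and its median log2 ratio was -0.16. GATA2, a factor of stem cells and mast cells, had 96 counts in PMSCV and 123 in WT_K118R, a log2 ratio of 0.09. ETV6, a repressor of the ETS family, had 85 and 136 counts, a 1.33-fold higher level (1.01 to 1.77). The summed count of the list was 951 in PMSCV and 652 in WT_K118R, which is 1.75-fold lower (1.58 to 1.94). That lower sum lies in CITED2 (450 and 133 counts) and SPI1 (113 and 1). The other entering members had log2 ratios from -0.26 for EP300 to 0.41 for ETV6.

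Components of the general transcription and chromatin machinery were low in WT_K118R as single genes. TAF9, a subunit of the TFIID and SAGA coactivator complexes, had 169 counts in PMSCV, 216 in WT, 180 in S_PXT1, 168 in S_PXT1_K118R and 7 in WT_K118R. Its level was 29.0-fold lower than in PMSCV (13.8 to 73.2). The model of AK6, on the same strand and overlapping TAF9, had 0 counts in PMSCV and 5 in WT_K118R, and the sum of both was 16.9-fold lower (9.42 to 33.4). BCL7C, a SWI/SNF subunit, had 36 counts in PMSCV, 42 in WT, 27 in S_PXT1, 12 in S_PXT1_K118R and 0 in WT_K118R, at least 14.4-fold lower against a floor of 3 counts (the counting interval starts at 11.1). KDM2A, a histone H3 lysine demethylase, had 167 counts in PMSCV, 237 in WT, 194 in S_PXT1, 197 in S_PXT1_K118R and 64 in WT_K118R, 3.13-fold lower (2.33 to 4.24). In each of these genes the 4 libraries other than WT_K118R all lay above it. Of 6 entering TBP and TAF genes 0 were higher and 1 was lower, TAF9, with a median of 0.13. BCL7C and KDM2A are in none of the lists. The SWI/SNF and remodeller list, which does not hold BCL7C, had 15 entering genes, of which none was called, and a median of 0.08.

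Other lower genes came from no single list. MAP3K7 (TAK1), a kinase upstream of NF-kB and JNK, had 39 counts in PMSCV, 44 in WT, 31 in S_PXT1, 33 in S_PXT1_K118R and 3 in WT_K118R, a 15.6-fold lower level (4.96 to 78.9). QRICH1 had 122 counts in PMSCV, 126 in S_PXT1, 49 in WT, 34 in S_PXT1_K118R and 15 in WT_K118R, 9.76-fold lower than in PMSCV (5.69 to 18.0). For QRICH1 the libraries were spread widely, and WT and S_PXT1_K118R lay between the extremes. RHOA, a GTPase that controls actin, had 273 counts in PMSCV and 157 in WT_K118R, 2.09-fold lower (1.71 to 2.56), with 164 in WT, 305 in S_PXT1 and 278 in S_PXT1_K118R. WT and WT_K118R were thus the low libraries for RHOA. CFL1, which severs actin filaments, was 2.09-fold lower (1.32 to 3.36), at 54 counts in PMSCV and 31 in WT_K118R.

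The iron list held 1 called gene, TFRC, which was high in PMSCV alone. It passed the filter on the mean count only through PMSCV, so the filter favoured this pattern. TFRC, the transferrin receptor, had 132 counts in PMSCV against 12 in WT_K118R, 12 in WT, 5 in S_PXT1 and 4 in S_PXT1_K118R. The level in WT_K118R was 13.2-fold lower than in PMSCV (7.31 to 26.2), and all 4 other libraries were low alike. FTH1, the ferritin heavy chain that stores iron, had 85 counts in PMSCV and 57 in WT_K118R, 1.79-fold lower (1.26 to 2.55) and within the 2-fold threshold. Of the 3 entering genes of the iron list 0 were higher and 1 was lower, with a median of -0.84, and FTL was near level at 52 and 54 counts.

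Among the higher genes, the high-mobility-group protein HMGB1 stood out in WT_K118R. HMGB1 is an abundant protein that bends DNA, and it had 71 counts in PMSCV, 28 in WT, 21 in S_PXT1, 22 in S_PXT1_K118R and 376 in WT_K118R. That was 4.41-fold higher than in PMSCV (3.42 to 5.77), and WT_K118R was the high library by a wide margin. Human pseudogenes named after HMGB1 took counts as well, and the gene with its 12 named pseudogenes had 246 counts in PMSCV and 585 in WT_K118R, 1.98-fold higher (1.70 to 2.31). Its relatives were closer to level: HMGB2 had 56 and 67 counts, and HMGB3 had 49 and 75. Of 5 entering HMG genes 1 was higher and 0 were lower, with a median log2 ratio of 0.35. NFE2L1 (NRF1), which drives transcription of proteasome genes, had 16 counts in PMSCV, 40 in WT, 27 in S_PXT1, 23 in S_PXT1_K118R and 111 in WT_K118R, 5.78-fold higher (3.41 to 10.5). CBX1 (HP1 beta), a reader of heterochromatin, had 57 counts in PMSCV, 84 in WT, 181 in S_PXT1, 68 in S_PXT1_K118R and 228 in WT_K118R, 3.33-fold higher (2.48 to 4.54). S_PXT1 was high for CBX1 too, while HMGB1 and NFE2L1 were highest in WT_K118R with no second library close. The other 7 entering genes of the CBX and Polycomb list stayed within 2-fold, and its median was 0.10.

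The proteasome list showed 1 called gene over a level background. PSME3 (PA28 gamma), a nuclear activator of the proteasome, had 194 counts in PMSCV, 994 in WT, 814 in S_PXT1, 781 in S_PXT1_K118R and 1025 in WT_K118R. It was 4.40-fold higher in WT_K118R than in PMSCV (3.77 to 5.16), and PMSCV was the only low library. The model of BECN1 overlaps it on the other strand and had 66 and 87 counts, and no source used here gives the strand setting of the counting. Of 11 entering proteasome genes 1 was higher and 0 were lower, with a median log2 ratio of 0.21. PSMA5 (254 and 387 counts) and PSMC6 (61 and 113 counts) had intervals above a ratio of 1, as did 222 of all 1547 entering genes.

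Genes of mRNA processing were level as groups, with single exceptions in both directions. TRA2B, a splicing activator, had 119 counts in PMSCV, 580 in WT, 100 in S_PXT1, 97 in S_PXT1_K118R and 498 in WT_K118R. It was 3.49-fold higher than in PMSCV (2.85 to 4.30), and the high libraries were WT and WT_K118R. SRSF7, an SR protein, had 135 counts in PMSCV, 131 in WT, 102 in S_PXT1, 111 in S_PXT1_K118R and 36 in WT_K118R, 4.50-fold lower (3.10 to 6.69). SRSF7 was low in WT_K118R alone. Of 22 entering SR and TRA2 genes, 1 was higher, 1 was lower and the median was 0.17. CPSF6, a subunit of the cleavage factor that chooses poly(A) sites, had 33 counts in PMSCV, 164 in WT, 140 in S_PXT1, 35 in S_PXT1_K118R and 159 in WT_K118R, 4.02-fold higher (2.75 to 6.03). PMSCV and S_PXT1_K118R were the low libraries for CPSF6, and it was the 1 called gene of 10 entering cleavage and polyadenylation genes, whose median was 0.26.

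RNA-binding proteins that act on mRNA stability were near level. Of 25 entering genes of mRNA stability and poly(A) binding, 0 were higher and 0 were lower, and the median log2 ratio was 0.11. The cytoplasmic poly(A)-binding protein PABPC1 had 6150 counts in PMSCV and 9339 in WT_K118R, 1.27-fold higher (1.23 to 1.31), and PABPC4 had 64 and 117, 1.52-fold higher (1.11 to 2.10). XRN1, the exonuclease that degrades decapped mRNA, had 26 and 50 counts, with an interval of 0.979 to 2.68 that included 1. YTHDF2, which binds methylated mRNA and promotes its decay, had 137 counts in PMSCV, 218 in WT, 165 in S_PXT1, 5 in S_PXT1_K118R and 332 in WT_K118R, 2.02-fold higher (1.65 to 2.48) and just inside the threshold. Of 9 entering genes of mRNA methylation it was the 1 called higher, 0 were lower and the median was 0.14. HNRNPU, a nuclear RNA-binding scaffold, lay just outside at 1.98-fold higher (1.82 to 2.15), with 768 counts in PMSCV, 1679 in WT, 800 in S_PXT1, 824 in S_PXT1_K118R and 1821 in WT_K118R. For HNRNPU the WT and WT_K118R libraries were high and the other 3 were alike. Of 33 entering hnRNP and RBM genes, 0 were higher and 1 was lower, and the median was 0.19. The lower one was RBM4, at 78 counts in PMSCV and 33 in WT_K118R, 2.84-fold lower (1.87 to 4.40). Summed with RBM4B and RBM14-RBM4 it stayed lower, at 101 and 52 counts, 2.33-fold (1.65 to 3.32). The readthrough model RBM14-RBM4 also joins it to RBM14, a different gene with 408 and 558 counts, and all models chained on that strand summed to a log2 ratio of 0.03.

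Translation genes differed little. Of 38 entering cytosolic ribosomal protein genes none was called in either direction, the median log2 ratio was -0.06 and the range was -0.74 to 0.41. Of 22 entering initiation and elongation factors 0 were higher and 1 was lower, EIF3E at 34 and 19 counts, and the median was 0.10. EIF4G2, a scaffold for initiation without the cap, was 1.38-fold higher (1.33 to 1.43) at 4357 and 7209 counts. Of 10 entering DEAD and DEAH box helicases and 14 cytosolic chaperones and chaperonin subunits, 0 were called, with medians of 0.23 and 0.07. Of 11 entering genes of the ER chaperone and unfolded protein list, 0 were called and the median was -0.20.

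The largest ratios among the higher nuclear genes came mainly from genes with few reads in PMSCV. VRK1, a nuclear kinase needed for cell division, had 1 count in PMSCV, 49 in WT, 33 in S_PXT1, 0 in S_PXT1_K118R and 62 in WT_K118R, a ratio of 51.7 (8.94 to 2073). PEX13, part of the import machinery of peroxisomes, had 1 count in PMSCV, 41 in WT, 24 in S_PXT1, 28 in S_PXT1_K118R and 39 in WT_K118R, a ratio of 32.5 (5.50 to 1316). ARHGEF6, a guanine nucleotide exchange factor, had 1 count in PMSCV, 47 in WT, 48 in S_PXT1, 42 in S_PXT1_K118R and 38 in WT_K118R, a ratio of 31.7 (5.35 to 1283). For PEX13 and ARHGEF6, PMSCV was the odd library and the other 4 were alike. CARM1, an arginine methyltransferase that coactivates transcription, had 3 counts in PMSCV and 47 in WT_K118R, a ratio of 13.1 (4.20 to 65.6), with 38 to 53 in the other 3 libraries. SLC25A12, a mitochondrial carrier of aspartate and glutamate, had 1 count in PMSCV, 46 in WT, 0 in S_PXT1, 40 in S_PXT1_K118R and 39 in WT_K118R. The model of HAT1 overlaps SLC25A12 on the other strand and was level, at 236 and 276 counts. MAP11 had 4 and 45 counts, COPG2 of the COPI vesicle coat 6 and 47, and ABI1, a regulator of actin assembly, 5 and 39. Each of these 3 also had between 29 and 55 counts in the other 3 libraries.

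A further set was low in both PMSCV and WT. EHD4, which acts in endocytic recycling, had 10 counts in PMSCV, 24 in WT, 108 in S_PXT1, 117 in S_PXT1_K118R and 126 in WT_K118R, 10.5-fold higher in WT_K118R than in PMSCV (5.53 to 22.4). SLC7A5 (LAT1), an importer of large neutral amino acids, had 11 counts in PMSCV, 6 in WT, 63 in S_PXT1, 62 in S_PXT1_K118R and 72 in WT_K118R, 5.46-fold higher (2.87 to 11.4). HIPK3, a nuclear kinase, had 7 counts in PMSCV, 13 in WT, 59 in S_PXT1, 39 in S_PXT1_K118R and 49 in WT_K118R, 5.83-fold higher (2.63 to 15.3). In these 3 genes WT_K118R lay with the S_PXT1 and S_PXT1_K118R libraries and apart from WT. RAB7A, a GTPase of late endosomes, had the other arrangement, with 9 counts in PMSCV, 47 in WT, 3 in S_PXT1, 2 in S_PXT1_K118R and 39 in WT_K118R, 3.61-fold higher (1.72 to 8.48). BLCAP had 7 counts in PMSCV and 42 in WT_K118R, 5.0-fold higher (2.23 to 13.2), with 41 in WT, 6 in S_PXT1 and 32 in S_PXT1_K118R.

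Setting each called gene against all 5 libraries showed which of the pair stood apart. Both libraries took part in the choice of these genes, so the counts are a description. Of the 44 higher genes, PMSCV was at least 2-fold below each of the other 4 libraries in 13, WT_K118R was at least 2-fold above each of the others in 8, and neither held in 23. Of the 42 lower genes, WT_K118R was at least 2-fold below each of the others in 14, PMSCV was at least 2-fold above each of the others in 4, and neither held in 24. The 14 genes with WT_K118R at least 2-fold below each other library included SPI1, TUBA1A, TAF9, BCL7C, MAP3K7, QRICH1, SRSF7, CITED2 and KDM2A. Also among them, and named after their values were seen, were NUDT3 (45 and 11 counts in PMSCV and WT_K118R), EIF4E3 (21 and 6) and KMT2C (36 and 19), a histone methyltransferase. The 8 genes with WT_K118R at least 2-fold above each other library included HMGB1, NFE2L1, FN1, KRT14 and KRT6A. UBE2G1, a ubiquitin-conjugating enzyme (17 and 67 counts), and NDRG1 (16 and 84 counts) were also among them and were likewise named after their values were seen. KRT14, UBE2G1 and NDRG1 passed the filter on the mean count only through WT_K118R, so the filter favoured this pattern for them.

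**Figure D2:**
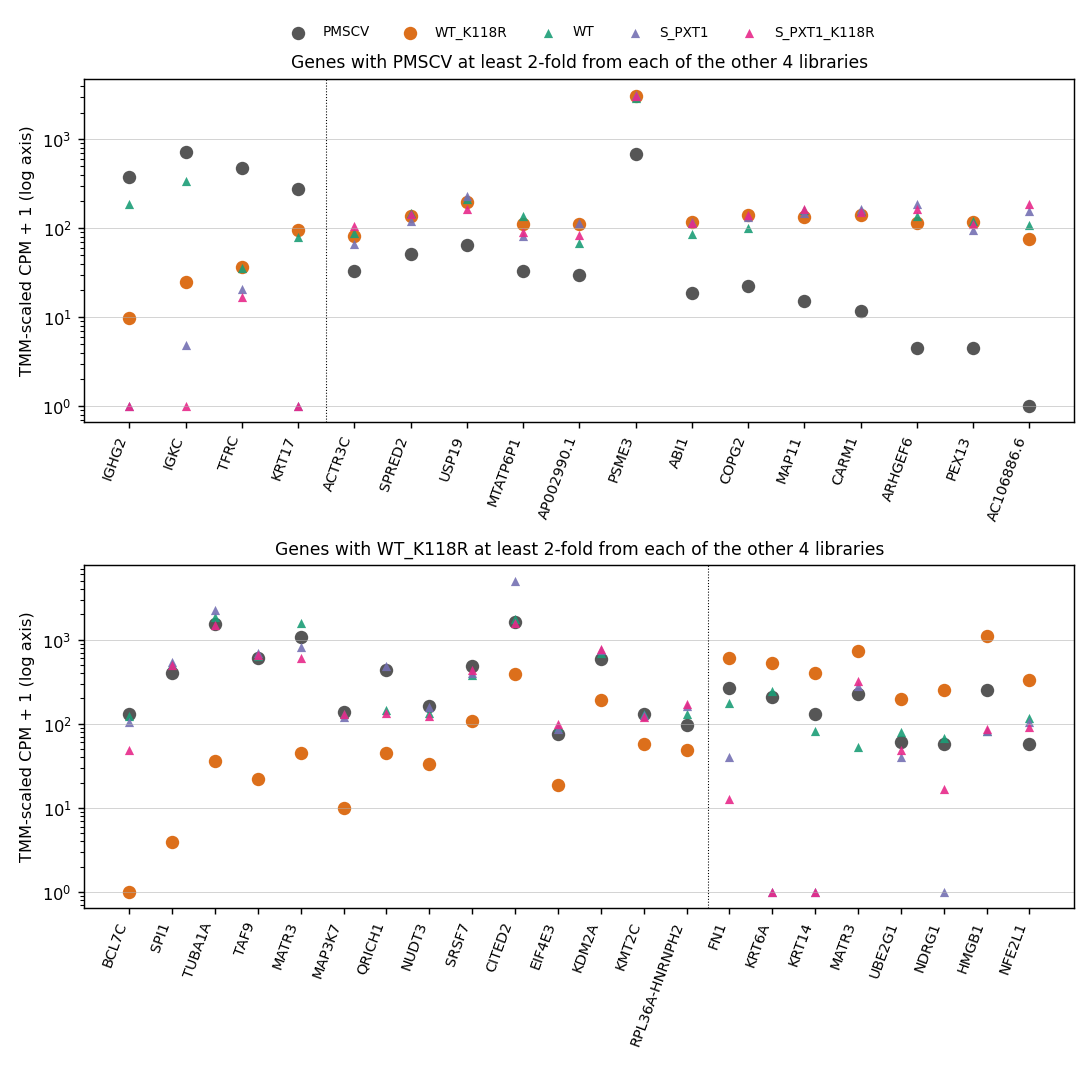
TMM-scaled CPM + 1 (log axis) in the 5 libraries for called genes in which PMSCV (upper panel) or WT_K118R (lower panel) was at least 2-fold from each of the others. Large circles are PMSCV and WT_K118R, triangles the other libraries, and a dotted line parts genes lower in WT_K118R (left) from those higher in it (right); SPI1, TUBA1A and TAF9 in WT_K118R, and PEX13 and ARHGEF6 in PMSCV, lie far below the rest.

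The largest ratios in both directions came from the mitochondrial chromosome, at the junction shown above. MT-ND4L had 103 counts in PMSCV, 1 in WT, 63 in S_PXT1, 0 in S_PXT1_K118R and 0 in WT_K118R, at least 41.2-fold lower in WT_K118R than in PMSCV against the floor of 3 counts (the counting interval starts at 32.9). MT-ND4 had 3 counts in PMSCV, 625 in WT, 2 in S_PXT1, 203 in S_PXT1_K118R and 665 in WT_K118R, a ratio of 185 (62.9 to 898). Every library had nearly all reads of this pair on 1 of the 2 models, MT-ND4L in PMSCV and S_PXT1 and MT-ND4 in the other 3. The human models share 7 bases, as the mouse genes do. Summed, the pair had 106 counts in PMSCV and 665 in WT_K118R, 5.23-fold higher (4.25 to 6.48), so the sum stayed higher while the direction of MT-ND4L turned with it, to a log2 ratio of 2.38. The other 9 entering genes of the mitochondrial chromosome lay within 2-fold, among them MT-CO3 at 279 counts in both libraries and MT-ND1 at 192 and 191, and the median of all 11 was -0.10. Of 5 entering nuclear genes of the respiratory chain and ATP synthase 0 were called, with a median of 0.06.

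Alpha-tubulin counts also differed between closely related models. TUBA1A had 437 counts in PMSCV, 640 in WT, 578 in S_PXT1, 383 in S_PXT1_K118R and 12 in WT_K118R, 43.7-fold lower than in PMSCV (24.8 to 85.2). TUBA1B had 792 and 1089 counts in PMSCV and WT_K118R, and TUBA1C had 3489 and 5043, both named after their values were seen. The 3 together had 4718 and 6144 counts, a ratio of 1.09 (1.04 to 1.13), so the sum was near level while TUBA1A alone was low. Of 12 entering tubulin, actin and actin-regulating genes, 0 were higher and 2 were lower, TUBA1A and CFL1, with a median of 0.01. MATR3, a nuclear matrix protein that binds RNA, has 2 overlapping models in the table and was named after its values were seen. The first (ENSG00000015479) had 305 counts in PMSCV and 15 in WT_K118R, and the second (ENSG00000280987) had 63 and 244. Summed, MATR3 had 368 and 259 counts, 1.70-fold lower (1.45 to 2.01) and within the threshold. Reads shared between near-identical or overlapping models could be split by the authors' counting, so single values of MT-ND4, MT-ND4L, TUBA1A, MATR3, RBM4 and HMGB1 are uncertain.

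**Figure D3:**
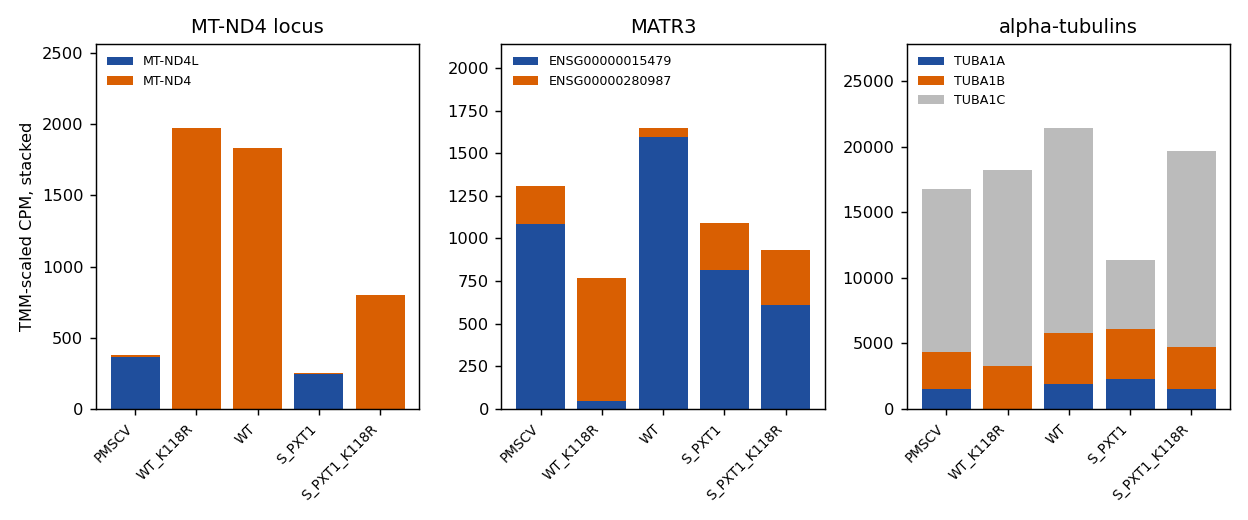
Stacked TMM-scaled CPM in the 5 libraries for the MT-ND4L and MT-ND4 models, the 2 MATR3 models and 3 alpha-tubulin models. In WT_K118R the reads lie on MT-ND4 and on the second MATR3 model, and the TUBA1A segment, with 12 counts, is barely visible, while the alpha-tubulin total of 6144 counts is close to that of PMSCV after scaling.

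Transcripts of plasma cells, epithelia and connective tissue, which a pro-B line does not usually express, were counted in PMSCV, WT_K118R and WT. Those of connective tissue were also counted in S_PXT1 and S_PXT1_K118R, where the collagen and matrix list summed to 379 and 368 counts. The immunoglobulin list, with constant regions and the joining chain, summed to 752 counts in PMSCV and 29 in WT_K118R, with 506 in WT, 2 in S_PXT1 and 2 in S_PXT1_K118R. It was 31.1-fold lower in WT_K118R than in PMSCV (21.5 to 46.8), and all 13 of its 16 matched genes with a count in the pair had a lower CPM in WT_K118R. IGHG1 was 37.2-fold lower (20 to 78.3), with 10 counts in WT_K118R against 310 in PMSCV and 238 in WT, and 1 in S_PXT1 and 2 in S_PXT1_K118R. IGKC, the kappa light chain, was 30.6-fold lower (15.2 to 71.8), with 8 counts in WT_K118R against 204 in PMSCV and 117 in WT, and 1 in S_PXT1 and 0 in S_PXT1_K118R. PMSCV and WT were the high libraries, and the 4 IGHG genes together were 36.7-fold lower in WT_K118R (22 to 66.1).

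Keratins differed in both directions. KRT14, a keratin of basal epithelial cells, had 135 counts in WT_K118R against 36 in PMSCV and 28 in WT, and 0 in both S_PXT1 libraries, and was 3.13-fold higher than in PMSCV (2.15 to 4.65). KRT5, its partner in basal cells, had 76 and 161 counts, 1.77-fold higher (1.34 to 2.35) and within the threshold, and KRT6A had 58 and 176, 2.53-fold higher (1.87 to 3.46). KRT17 went the other way with 78 and 32 counts, 2.92-fold lower (1.92 to 4.56). KRT14 entered only through WT_K118R and KRT17 only through PMSCV. KRT4, KRT13 and SPRR3, genes of the mucosal epithelium, had 14, 9 and 17 counts in PMSCV and 0, 1 and 1 in WT_K118R, and they entered because WT held 262, 266 and 125. Over the 17 matched keratins the sum was 341 counts in PMSCV and 614 in WT_K118R, with 879 in WT, 1 in S_PXT1 and 1 in S_PXT1_K118R, 1.5-fold higher in WT_K118R than in PMSCV (1.31 to 1.72). The cornified envelope list summed to 94 counts in PMSCV and 41 in WT_K118R, with 531 in WT, 2.75-fold lower (1.89 to 4.07). Desmosome genes summed to 153 and 157 counts, a level 1.17-fold lower after scaling with an interval of 0.930 to 1.47 that included 1.

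Prostate and muscle markers were present as well. The prostate list summed to 269 counts in PMSCV and 243 in WT_K118R, with 277 in WT and 1 in each S_PXT1 library. KLK3, which encodes prostate-specific antigen, had 51 counts in PMSCV and 71 in WT_K118R, with 62 in WT and 0 in both S_PXT1 libraries. After scaling, the prostate sum was 1.33-fold lower in WT_K118R than in PMSCV (1.11 to 1.59), with a lower CPM in 11 genes and a higher CPM in KLK3 alone. STEAP2, a metalloreductase, had 58 and 36 counts, 1.93-fold lower (1.25 to 3.02). MYH11, the myosin of smooth muscle, had 54 counts in PMSCV and 1 in WT_K118R, with 215 in WT, 1 in S_PXT1 and 0 in S_PXT1_K118R, 64.8-fold lower in WT_K118R than in PMSCV (11.1 to 2606). MYH11 entered only because WT held 215. The smooth muscle list summed to 303 and 310 counts, a level of 1078 CPM in PMSCV and 919 CPM in WT_K118R, with a lower CPM in 13 genes and a higher CPM in 5. TPM1, which the S_PXT1 libraries also held at 166 and 155 counts, gave 152 and 188 of them. Of the 3 entering genes MYH11 was lower, and TPM1 and FLNA (36 and 72 counts) were within the threshold. ACTG2, a smooth muscle actin, did not enter and had 7 and 1 counts; it was chosen after seeing its values. Whether the counts of these tissue genes come from mouse or from human RNA was not tested. IGHG2 of the immunoglobulin list was among the called genes whose symbol matched no mouse symbol.

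FN1 was the 1 called gene of the collagen and matrix list, whose summed level was slightly higher in WT_K118R. FN1, the matrix protein fibronectin, had 74 counts in PMSCV and 204 in WT_K118R, with 60 in WT, 10 in S_PXT1 and 3 in S_PXT1_K118R, 2.30-fold higher than in PMSCV (1.75 to 3.04). COL3A1 had 132 and 202 counts, 1.28-fold higher (1.02 to 1.6), and COL1A1 had 162 and 236, with an interval of 0.990 to 1.49 that included 1. Of 8 entering genes of the collagen and matrix list 1 was higher and 0 were lower, with a median of 0.28. By CPM, 10 of its matched genes were higher in WT_K118R and 10 lower. The list summed to 853 and 1256 counts, 1.23-fold higher (1.12 to 1.34), and to 841 in WT, 379 in S_PXT1 and 368 in S_PXT1_K118R. Unrelated lists had sums of similar ratio, such as 1.2 for translation factors and 1.21 for cleavage and polyadenylation. Others lay lower, such as 1.05 for ribosomal proteins and 0.963 for oligosaccharyltransferase and translocon. The matrix sum is therefore not particular to matrix genes.

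Genes of antigen presentation were higher in WT_K118R as a summed list. The 16 matched genes had 160 counts in PMSCV and 372 in WT_K118R, with 214 in WT, 35 in S_PXT1 and 34 in S_PXT1_K118R, which is 1.94-fold higher in WT_K118R than in PMSCV (1.61 to 2.35). In 14 of the 16 the CPM was higher and in 2 lower. CD74, the chaperone of MHC class II, had 19 counts in PMSCV and 58 in WT_K118R, with 46 in WT and 0 in both S_PXT1 libraries, 2.54-fold higher (1.49 to 4.52). CD74 was the 1 called gene of this list and entered only through WT_K118R. B2M, the light chain of class I, had 61 and 95 counts with an interval of 0.931 to 1.82, and HLA-DRA and HLA-B, which did not enter and were named after their values were seen, had 9 and 39, and 13 and 40. Interferon-stimulated genes summed to 68 counts in PMSCV and 124 in WT_K118R, 1.52-fold higher (1.12 to 2.07), with 35 in WT, 6 in S_PXT1 and 1 in S_PXT1_K118R. None of the 30 interferon-stimulated genes reached a mean count of 20, and 19 had a higher and 8 a lower CPM in WT_K118R. The part that transcripts of other tissues have in these differences was not tested. In bulk RNA, fewer cells of a type and less RNA per cell cannot be told apart.

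**Figure D4:**
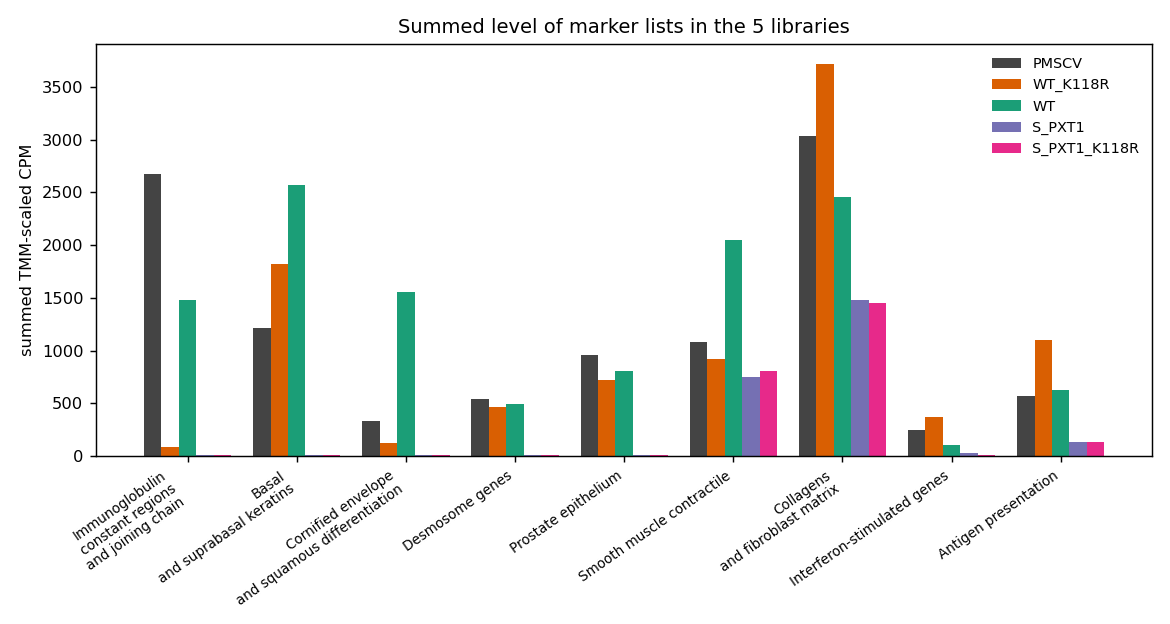
Summed TMM-scaled CPM of 9 lists of tissue and immune genes (x axis) in the 5 libraries (bars, from 0). Beside PMSCV, WT_K118R has a low immunoglobulin sum, a higher antigen presentation sum and a slightly higher matrix sum. The S_PXT1 libraries are near 0 in all but the smooth muscle, matrix and antigen presentation lists.

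Without the 24 entering genes of the 7 tissue lists, 41 genes were higher and 34 lower of the 1523 that remained. With them the counts were 44 and 42 of 1547, so the number of lower genes fell more. Markers of other blood cells were scarce. T and NK cell markers summed to 4 counts in PMSCV and 11 in WT_K118R, neutrophil and monocyte markers to 22 and 36, and erythroid markers to 0 and 6. Mast cell and basophil markers summed to 113 and 134, of which GATA2 gave 96 and 123.

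Few genes of the signalling and survival lists could be read. The entering members of the interleukin-3, BCL2 family, NF-kB and ERK feedback lists were within 2-fold. Signalling genes outside these lists were called, among them MAP3K7, lower at 39 counts in PMSCV and 3 in WT_K118R. SPRED2, picked because it was called, was higher at 14 and 46 counts. Of the 18 matched genes of the interleukin-3 receptor and JAK-STAT5 list 2 entered, and of the 15 of the BCL2 family 2. CISH, PIM1, SOCS2 and OSM of the first list, named after their values were seen, had 0 to 5 counts in each library of the pair. STAT5B, which carries the interleukin-3 signal, had 41 counts in PMSCV and 52 in WT_K118R, a ratio of 1.06 (0.688 to 1.63), and STAT3 had 27 and 30. BCL2L1, a survival gene of the BCL2 family, had 73 and 90 counts, a ratio of 1.03 (0.746 to 1.42). BCL2 had 65 and 61, with an interval of 0.888 to 1.84 towards PMSCV. NFKBIA, the inhibitor of NF-kB, was 1.96-fold lower (1.36 to 2.86) at 80 and 49 counts and just outside the threshold. It had 3 counts in WT, 104 in S_PXT1 and 0 in S_PXT1_K118R, so its spread over the other libraries was wider than the difference in the pair. JUNB and SPRED1, genes of early transcription and ERK feedback, had 43 and 63 counts and 49 and 64 counts.

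Growth and metabolism genes gave 0 called members in the lists of DNA replication and cell cycle (3 entering, median 0.07), glycolysis (9, median 0.03), cholesterol synthesis (4, median -0.04), histone variants (4, median 0.02) and oligosaccharyltransferase and translocon (9, median 0.04). MCM4, a subunit of the replicative helicase, had 213 and 269 counts, and TOP2A, which untangles DNA in dividing cells, had 140 and 175. GAPDH had 129 and 180 counts, a ratio of 1.16 (0.922 to 1.47). Of 18 entering small GTPases 1 was higher, RAB7A, and 1 was lower, RHOA, with a median of 0.17. Of 5 entering SLC25 carriers and outer membrane genes 1 was higher, SLC25A12, and 0 were lower, with a median of -0.09. These medians lay near the 0.10 of all entering genes, and their counts are read beside the 2.84% and 2.71% called overall.

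**Figure D5:**
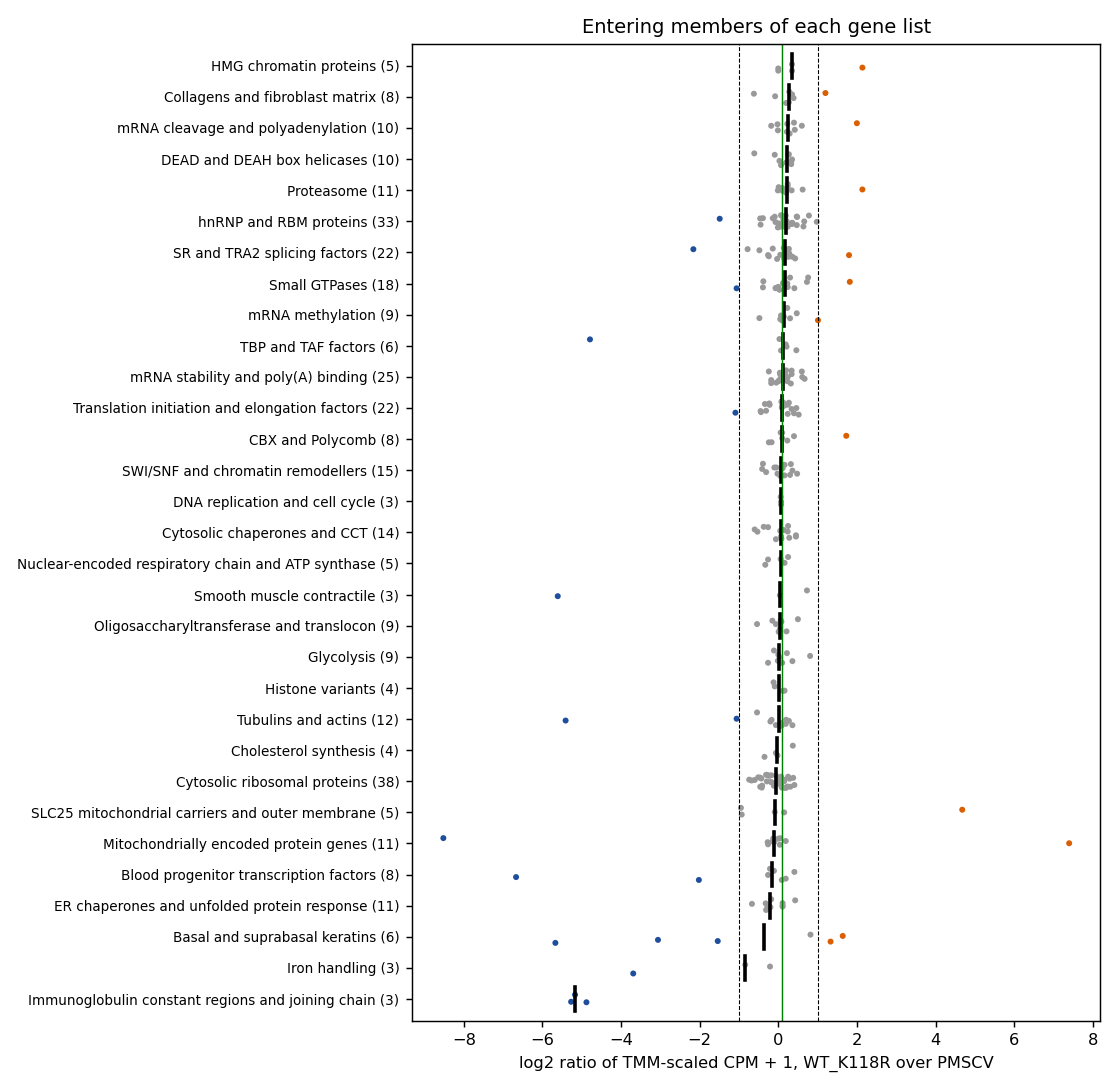
log2 ratio of WT_K118R over PMSCV (x axis, CPM + 1) for the entering members of each list with at least 3 of them (y axis, number in brackets). Points are genes, black bars list medians, dashed lines the 2-fold threshold and the green line the median of all genes at 0.10; most medians lie close to that line, and the immunoglobulin, iron and keratin lists lie to its left.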

How the data were processed

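RNA of 5 Ba/F3 libraries, 1 per group, was compared as WT_K118R over PMSCV. Per the file headers, the authors deposited raw counts and FPKM values side by side for 50867 genes. HISAT2 2.2.1, cutadapt 1.9 and FastQC are listed in the submitters' processing notes. The counting tool, strand setting and annotation were not given in the sources used here. There were 0 value columns without a library.

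Counts were scaled by TMM over the 5 libraries (edgeR 4.0.16, R 4.3.3) and analysed in Python 3.11.15 with numpy 2.4.6, pandas 2.3.3 and scipy 1.17.1. Log2 ratios used CPM with a pseudocount of 1. Fold intervals are exact conditional binomial (Clopper-Pearson) at 95%. A library at 0 counts was set to a floor of 3 counts, which is 10.7 CPM in PMSCV and 8.89 CPM in WT_K118R. The procedure was checked on simulated data.

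Of 1119 symbols in 46 lists, 1096 were matched and 361 entered. Of 1547 entering genes, 1441 matched a mouse symbol, among them 40 of 44 higher and 39 of 42 lower genes. Named were the 15 highest and 15 lowest ratios whose interval excluded 1, the 10 highest and 10 lowest at a mean count of at least 100, and up to 4 members of each list (markers by level). Clone names and symbols on several rows were left out. Not every gene of this rule is described. Members and lists were chosen with earlier results of these data known. Mouse sequences come from GENCODE M21 on GRCm38. Alternatives were other pseudocounts, filters, thresholds, size factors from DESeq2 1.42.0, total counts, TMM over the pair, the deposited FPKM values and summed overlapping models. Some genes and sequences are not reported here.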

Additional observations from a re-analysis of the deposited data

How the results depend on the processing

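The number of genes 2-fold higher was 44 and 2-fold lower 42. A minimum mean count of 10 gave 90 and 87, of 50 gave 17 and 14, of 100 gave 8 and 9, and no minimum gave 3440 and 3997. A threshold of 1.5-fold gave 115 and 88, and of 3-fold 28 and 25. Under the other alternatives the counts stayed within 1.5 times: 37 to 56 higher and 38 to 48 lower, and 41 and 34 without the 7 tissue lists, an alternative chosen after seeing the data. The median log2 ratio of all genes was 0.10, and -0.02 with total counts, -0.02 with the deposited FPKM values and 0.00 with no minimum. Of 48 called genes among 156 named, 46 stayed called in the same direction with total counts, with FPKM values and with overlapping models on 1 strand summed. That summing turned MT-ND4L to 2.38 and RBM4 to 0.03; the RBM4 value includes RBM14, and RBM4 with RBM4B and RBM14-RBM4 alone stayed at -1.22. Pseudocounts of 0.1 and 5 CPM, DESeq2 size factors and TMM over the pair kept all 48. Replicates could not be left out with 1 library per group. No paired analysis was possible because each group is 1 library. At this depth most genes had too few counts to enter.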
